A study of Mus musculus with 12 samples.

Results

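A set of 44 genes that take part in the sensing of viral RNA, in interferon signalling or in antigen presentation by MHC class I was followed across WT and Faf2 KO NE-4C cells. The genes were chosen by name from their known roles, with earlier results of these data known. Each had exactly 1 row among the 57010 genes of the deposited table. By role they were 3 RNA sensors, 3 genes for the adaptor MAVS and its kinases, 5 interferon receptor chains and their kinase, 6 transcription factors, 20 interferon-stimulated effectors and 7 genes for the chains and the peptide loading of MHC class I. NE-4C is a neural progenitor line from embryonic mouse brain that was immortalized by loss of p53, which all 4 groups share. The 12 RNA-Seq libraries held 3 libraries, from independent passages, in each of 4 groups. WT cells and Faf2 KO cells were either collected without perturbation (WT NO and KO NO) or treated with 1 µM all-trans retinoic acid for 24 h and collected on day 3 (WT RA and KO RA). The KO cells carry a CRISPR/Cas9 deletion of exon 4 of Faf2 and are 1 line grown from an edited colony, so a change made by the deletion and a property of that line cannot be told apart. RA treatment and the days in culture after it likewise cannot be told apart.

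Cells detect viral RNA through cytosolic sensors such as RIG-I and MDA5 (Ifih1), which signal through the mitochondrial adaptor MAVS and the kinases TBK1 and IKKε to the transcription factors IRF3 and IRF7. The interferons made in response act through their receptors, JAK1 and the STAT2-IRF9 complex, and switch on antiviral effector genes and the MHC class I pathway. MHC class I shows peptides at the cell surface on a heavy chain (H2-K1, H2-D1) paired with β2-microglobulin (B2m), after transport by TAP1 and TAP2 and loading with tapasin (Tapbp). Neurons and early embryonic cells are known for low MHC class I. FAF2 is an adaptor of the p97 segregase at the endoplasmic reticulum, and the FAF2 protein also acts on MAVS. The libraries measure mRNA only.

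Library totals ran from 17370069 to 30738717 counts. Levels are given as CPM, the counts of a library divided by its TMM-scaled total, and since the deposited counts were scaled from TPM they are already corrected for gene length and can be compared between genes. Up to 3 counts in a library were taken as the floor, which was 0.0838 to 0.297 CPM. The targeted gene Faf2 stood at 50, 38.8 and 36 CPM in WT NO and at 21, 21.7 and 25.4 CPM in KO NO, without overlap, and its log2 fold change was −0.87 (SE 0.27, edgeR adjusted p = 0.179). In WT RA it stood at 35.1, 37.9 and 49.1 CPM and in KO RA at 36.1, 34.3 and 18.7 CPM, so these groups overlapped. The gene total sums all exons and does not read the deleted exon alone. KO RA 3 stood apart from its group: 21.0% of all genes tested were more than 2-fold above both other KO RA libraries and 21.3% more than 2-fold below. WT NO 3 stood apart less, with 5.70% of genes above and 3.05% below, but 6 of the members tested were among those above. Neural progenitor markers (Nes, Sox2, Pax6, Otx2, Cdh2) summed to 169 to 324 CPM in every library. In KO NO, Nes, Pax6 and Cdh2 lay below WT NO in every library, Sox2 lay above it and Otx2 overlapped. Pax6 stood at 0.791 to 2.01 CPM in KO NO and at 4.12 to 9.3 CPM in WT NO. Otx2 stood at 19.4 CPM in KO RA 3 and at 82 and 104 CPM in the others of its group. Haematopoietic and microglial markers, which would mark cells rich in MHC class I, summed to between 2.48 and 6 CPM, 6 or 7 of the 10 were at the floor throughout each group, and Csf1r and Adgre1 were among these. Neuron markers summed to 68.0 to 105 CPM in the NO libraries and 138 to 203 CPM in the RA libraries. Among them Elavl3 overlapped between NO and RA in both genotypes, Tubb3 in WT and Dcx in KO. Fibroblast and mesenchymal markers summed to 7.32 to 16.2 CPM in NO and 56.4 to 378 CPM in RA (in KO RA 3 mostly Dcn, at 345 CPM). Endothelial markers reached 13.9 CPM in KO RA. The part of these cell types in the RA comparisons was not tested. In bulk RNA fewer cells of a type and less RNA per cell cannot be told apart.

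The receptors, their kinase, B2m and several membrane and lysosomal effectors were expressed in all groups, while most of the classical interferon-stimulated genes were near or under the floor. In WT NO, 12 of the 44 members had a mean of 10 CPM or more. The membrane proteins Ifitm2 at 459 ± 109.4 CPM (SD, n = 3) and Ifitm1 at 120 ± 43.2 CPM were the highest, followed by B2m at 62.5 ± 13.4 CPM, the virus-tethering protein Bst2 at 37.1 ± 8.72 CPM and the lysosomal thiol reductase Ifi30 at 33.0 ± 2.44 CPM. In this order the lowest library of one gene lay above the highest of the next only between Ifitm2 and Ifitm1, with 335 against 157 CPM, and between B2m and Bst2, with 54.1 against 45.8 CPM. Irf1, H2-K1, Jak1, Tapbp, Ifngr1, Irf3 and Tbk1 followed with means between 30.7 and 12.8 CPM, and their ranges overlapped with those of their neighbours in this order.

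At the low end, 12 members did not pass the filter on low counts and were not tested: Ifih1, Tlr3, Irf7, Nlrc5, Ifit1, Ifit3, Oas1a, Oasl1, Rsad2, Usp18, Rtp4 and Parp14. None of these reached more than 0.762 CPM in any library. The deubiquitinating enzyme of ISG15 (Usp18), Oasl1 and the class I transactivator Nlrc5 were at or under the floor in all 12 libraries. Of the 32 members tested, 23 were above the floor in every library. The classical interferon-stimulated genes Isg15, Ifit2, Oasl2 and Isg20 stayed at or below 2.72 CPM in every library. Reads of close relatives (Ifitm1, Ifitm2 and Ifitm3, the Ifit and Oas families, H2-K1 and H2-D1) could have been split between copies by the authors' quantification, so their single values are uncertain.

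**Figure D1:**
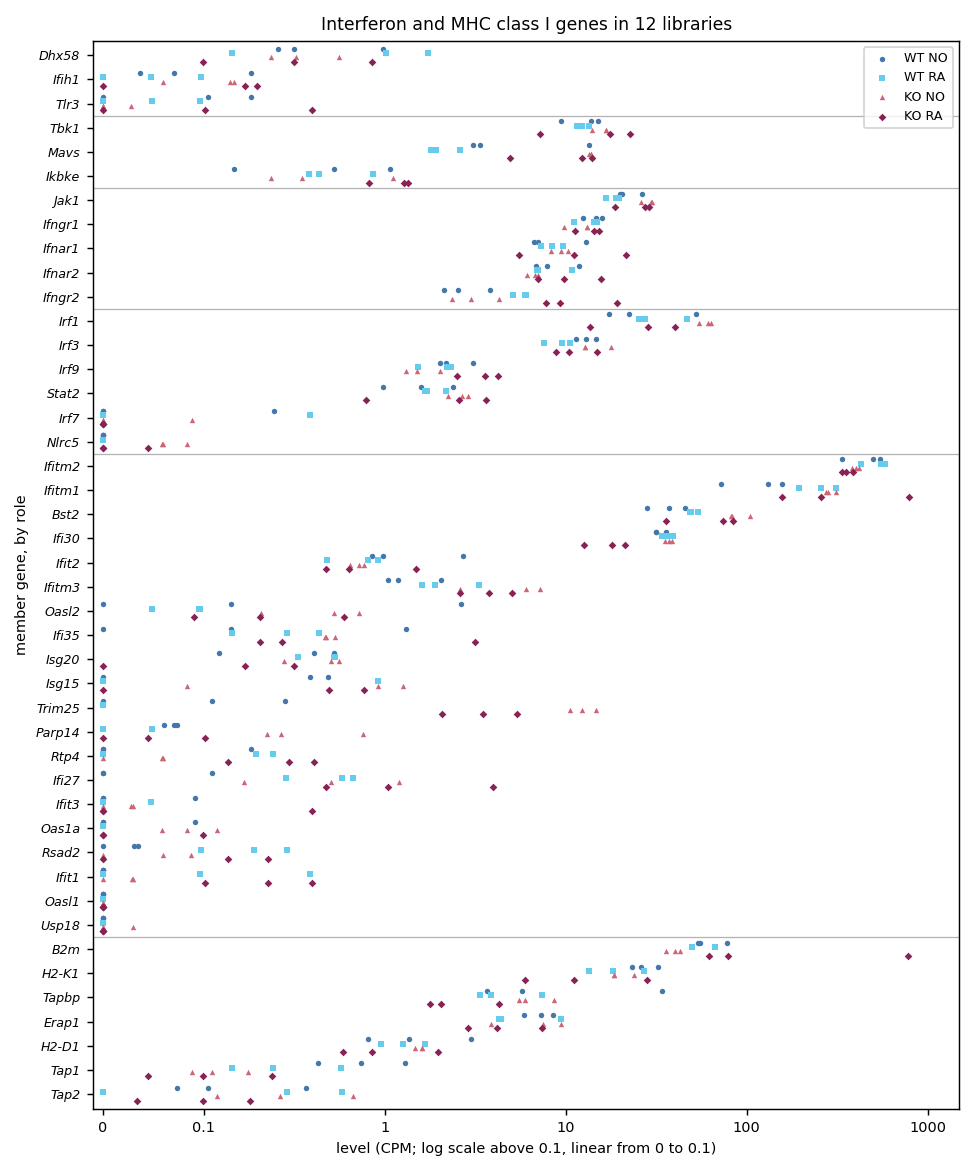
Level of each of the 44 members in each library (CPM, on an axis that is logarithmic above 0.1 and linear below), ordered by role and then by the WT NO mean, with symbols for WT NO, WT RA, KO NO and KO RA. Ifitm2 lies between 335 and 579.6 CPM in all 12 libraries, while the 12 untested members stay at or below 0.762 CPM, and Trim25 separates KO from WT libraries in both treatments.

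Among the RNA sensors, only Dhx58, the helicase LGP2 that modulates MDA5, was tested. It ranged from 0.0991 to 1.73 CPM over the 12 libraries and passed no test. Ifih1 stayed at or below 0.198 CPM and the endosomal sensor Tlr3 at or below 0.397 CPM.

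Mavs, the adaptor through which RIG-I and MDA5 signal (chromosome 2, 131075442 to 131096740 of GRCm39, plus strand), stood at 3.10, 3.36 and 13.4 CPM in WT NO and at 13.6, 13.9 and 13.8 CPM in KO NO. With RA it stood at 1.92, 2.62 and 1.82 CPM in WT and at 14.1, 12.3 and 4.96 CPM in KO. The KO libraries lay above the WT libraries of the same treatment without overlap, and 2 libraries, WT NO 3 and KO RA 3, stood far from the others of their group. On the log2 scale Mavs differed by 1.05 between KO NO and WT NO (SE 0.54, adjusted p = 0.482) and by 2.31 between KO RA and WT RA (SE 0.57, adjusted p = 0.0761), so neither passed. Without WT NO 3 they were 2.09 (adjusted p = 0.0367) and 2.30 (adjusted p = 0.0115), and without KO RA 3 they were 1.05 (adjusted p = 0.190) and 2.63 (adjusted p = 0.0157). With both libraries left out, a choice made after the data were seen, they were 2.10 (SE 0.18, adjusted p = 0.000203) and 2.63 (SE 0.18, adjusted p = 3.66e-05). The call of Mavs thus changed with these 2 libraries, while the direction was the same in all 21 alternatives tried for each comparison, from 0.70 to 2.10 in NO and from 2.06 to 2.68 in RA. Over all genes tested on chromosome 2 the median was 0.11 in KO RA against WT RA. In WT cells Mavs did not pass for RA against NO (−1.65, SE 0.56, adjusted p = 0.251), and this value was −0.61 (adjusted p = 0.534) without WT NO 3. The kinases downstream of MAVS did not pass by edgeR with all libraries: Tbk1 ranged from 7.24 to 22.8 CPM and Ikbke, which encodes IKKε, from 0.148 to 1.35 CPM. Tbk1 was called higher in KO RA than in WT RA by limma-voom and, with both libraries left out, by edgeR (0.69, SE 0.15, adjusted p = 0.0122).

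Of the interferon receptors, the signalling chain of the interferon-γ receptor, Ifngr2 (chromosome 16, 91343906 to 91362512, plus strand), was called higher with RA in KO cells. It stood at 4.31, 2.99 and 2.35 CPM in KO NO and at 9.30, 7.84 and 19.2 CPM in KO RA. Every KO RA library was above every KO NO library, with KO RA 3 the highest, and Ifngr2 rose by 1.91 on the log2 scale (SE 0.39, adjusted p = 0.0190), or by 1.40 (adjusted p = 0.0111) without KO RA 3. It passed in 16 of the 21 alternatives, and missed in the fit with a replicate block, in that of these groups alone and when KO NO 1, KO NO 2 or KO NO 3 was left out. In WT it stood at 2.54, 3.81 and 2.14 CPM without RA and at 5.96, 6.01 and 5.11 CPM with RA, again without overlap, and the log2 fold change was 1.01 (SE 0.38, adjusted p = 0.300), or 1.02 (adjusted p = 0.0419) without KO RA 3. The responses of KO and WT differed by 0.89 (SE 0.53, adjusted p = 0.654), so a difference between them was not shown. The ligand-binding chain Ifngr1 kept within 9.78 to 15.8 CPM, and the interferon-α receptor chains Ifnar1 and Ifnar2, which lie on chromosome 16 within the same cluster as Ifngr2, within 5.55 to 21.6 and 6.15 to 15.7 CPM. Ifnar1 was called higher in KO RA than in WT RA by limma-voom and by edgeR without both WT NO 3 and KO RA 3. The latter fit also called it higher than in KO NO. Ifnar2 was higher in every KO RA library than in every KO NO library (0.69, SE 0.33, edgeR adjusted p = 0.213). Of 15 genes tested within 500 kb of the Ifngr2 start, 1 was called lower with RA in KO cells and none was called higher. Their log2 fold changes ran from −1.15 to 1.69, with a median of 0.357. The receptor kinase Jak1 ranged from 16.8 to 30.0 CPM. It was 0.43 higher in KO RA than in WT RA (SE 0.22, adjusted p = 0.318), and 0.60 higher (SE 0.15, adjusted p = 0.0326) with KO RA 3 left out.

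Among the transcription factors, Irf1, which drives many interferon-γ targets, stood at 22.5, 17.4 and 52.3 CPM in WT NO, 46.9, 25.6 and 27.4 CPM in WT RA, 63.8, 61.6 and 54.7 CPM in KO NO and 28.5, 40.4 and 13.7 CPM in KO RA. The KO NO libraries were the highest, with WT NO 3 close below them. The log2 fold change was 0.97 (SE 0.46, adjusted p = 0.433) for KO NO against WT NO, and −1.12 (SE 0.46, adjusted p = 0.166) for KO RA against KO NO. Irf1 was called in both comparisons, in these directions, by limma-voom and by edgeR without both WT NO 3 and KO RA 3. Irf9, the DNA-binding partner of STAT2, stood at 2.02, 1.51 and 1.31 CPM in KO NO and at 2.53, 4.23 and 3.57 CPM in KO RA, which did not overlap (1.09, SE 0.34, adjusted p = 0.0915). Irf9 was called higher there by DESeq2 on all 12 libraries, by limma-voom and by edgeR without both WT NO 3 and KO RA 3. In WT it stood at 2.18, 3.07 and 2.01 CPM without RA and 2.21, 2.33 and 1.53 CPM with RA, which overlapped. Irf3, the factor activated through MAVS, stood at 11.5, 13.1 and 14.8 CPM in WT NO, 10.6, 7.61 and 9.60 CPM in WT RA, 17.8, 12.8 and 12.8 CPM in KO NO and 8.89, 10.4 and 14.9 CPM in KO RA. Its level lay within a factor of 1.56 between group means, the log2 fold changes ran from −0.50 to 0.29 over the 4 comparisons of groups, and none passed. Stat2 ranged from 0.793 to 3.65 CPM without a call by edgeR with all libraries, while limma-voom called it higher in KO NO than in WT NO, and Irf7 did not exceed 0.388 CPM.

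The member with the clearest difference between genotypes was Trim25, a ubiquitin ligase that acts on RIG-I and is itself induced by interferon (chromosome 11, 88890202 to 88911122, plus strand). It stood at 0.282, 0.111 and 0 CPM in WT NO and at 0, 0 and 0 CPM in WT RA. In KO NO it stood at 14.7, 12.4 and 10.6 CPM and in KO RA at 5.37, 3.51 and 2.08 CPM. All 6 KO libraries were above all 6 WT libraries, and 5 of the WT libraries were at or under the floor. Trim25 rose in KO NO against WT NO by 6.57 on the log2 scale (SE 0.83, adjusted p = 0.00934), and was called in 18 of 20 alternatives, with the adjusted p reaching 0.0631 without WT NO 2. In KO RA it was at least 25.3-fold higher than in WT RA, where every library was at the floor (adjusted p = 0.0139), and it was called in 16 of 20 alternatives, with the adjusted p reaching 0.0852 when only these groups were fitted. Within KO cells the level with RA was −1.77 against NO (SE 0.63, adjusted p = 0.135), and no overlap was seen. The median log2 fold change of chromosome 11 was −0.12 in KO NO against WT NO and −0.06 in KO RA against WT RA. Of the 10 genes tested within 500 kb of the Trim25 start, none was called in either genotype comparison, with log2 fold changes from −2.52 to 3.56 in NO and from −2.63 to 1.74 in RA.

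**Figure D2:**
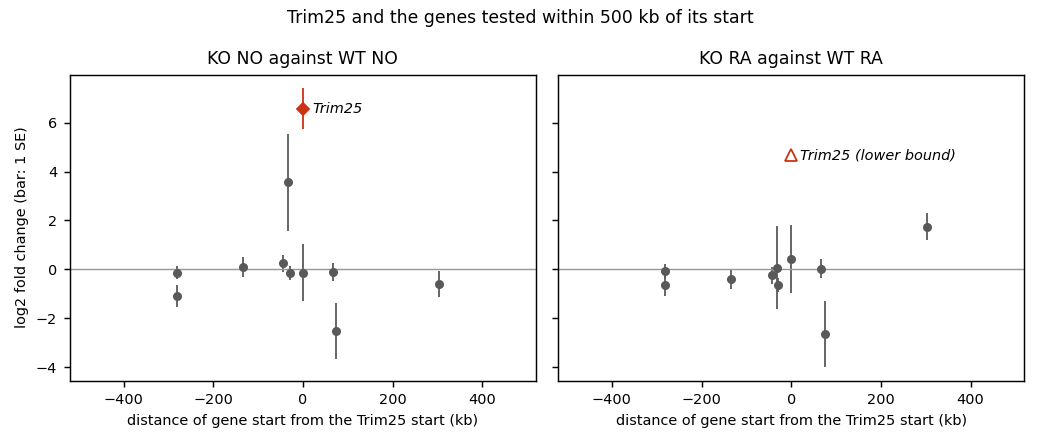
Log2 fold change of KO against WT (vertical axis, bars 1 SE) for Trim25 (red) and the 10 genes tested within 500 kb, by the distance of their starts from the Trim25 start in kb; the open triangle is the lower bound of 25.3-fold against WT RA libraries at the floor. Trim25 stands at 6.57 in NO, and no neighbour passed the test in NO or RA.

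Ifi30, the thiol reductase that unfolds antigens in lysosomes (chromosome 8, 71215403 to 71219334, minus strand), was lower in KO RA than in the other groups. It stood at 31.6, 31.6 and 35.8 CPM in WT NO, 36.3, 39.1 and 34.1 CPM in WT RA and 38.8, 35.6 and 37.5 CPM in KO NO, against 18.1, 21.3 and 12.6 CPM in KO RA. The 3 KO RA libraries were below the 9 others. Ifi30 fell by 1.07 on the log2 scale against WT RA (SE 0.21, adjusted p = 0.0376) and fell by 1.103 against KO NO (SE 0.21, adjusted p = 0.0138). KO RA 3 was the lowest, and without it the values were −0.90 (adjusted p = 0.00402) and −0.93 (adjusted p = 0.00160). The call against WT RA held in 8 of 21 alternatives, with an adjusted p of up to 0.225, and that against KO NO in 17 of 21, with up to 0.141. The RA response of Ifi30 differed between KO and WT by −1.25 (SE 0.29, adjusted p = 0.286), which did not pass, and without KO RA 3 by −1.08 (SE 0.17, adjusted p = 0.0241). Of 34 genes tested within 500 kb, 2 were called higher and 2 lower with RA in KO cells.

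Bst2, the tetherin that holds budding virus at the membrane, stood at 37.1, 28.3 and 45.8 CPM in WT NO and at 83.5, 104 and 82.2 CPM in KO NO. With RA it stood at 49.0, 53.7 and 48.8 CPM in WT and at 74.0, 84.0 and 36.1 CPM in KO. The untreated groups did not overlap and the treated groups did, through KO RA 3. The untreated log2 fold change of 1.28 (SE 0.30) had an adjusted p of 0.0792 with all libraries and of 0.00230 without KO RA 3, which is not one of the libraries compared but enters the estimate of the spread. Bst2 passed in 7 of 21 alternatives, and in KO RA against WT RA the value was 0.36 (SE 0.30, adjusted p = 0.563). The latter was 0.64 without KO RA 3 (adjusted p = 0.0543), 0.64 without both WT NO 3 and KO RA 3 (adjusted p = 0.0135) and 0.65 by limma-voom (adjusted p = 0.0148).

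The IFITM proteins, which block the entry of enveloped viruses, are encoded side by side on chromosome 7, between 140534738 and 140591282 of GRCm39. Ifitm1 stood at 131, 157 and 72.1 CPM in WT NO, 314, 195 and 257 CPM in WT RA, 274, 313 and 281 CPM in KO NO and 156, 256 and 794 CPM in KO RA. Ifitm3 stood at 2.04, 1.18 and 1.04 CPM in WT NO, 3.32, 1.60 and 1.91 CPM in WT RA, 7.21, 6.04 and 2.60 CPM in KO NO and 2.62, 3.78 and 5.06 CPM in KO RA. Both were higher in every KO NO library than in every WT NO library. The log2 fold changes were 1.27 for Ifitm1 (SE 0.52, adjusted p = 0.344) and 1.89 for Ifitm3 (SE 0.47, adjusted p = 0.0957), and without KO RA 3 both passed, at 1.28 (adjusted p = 0.0217) and 1.90 (adjusted p = 0.0268). Ifitm1 also was higher in every WT RA library than in every WT NO library (1.09, SE 0.52, adjusted p = 0.424). Ifitm2 lay from 335 to 579.6 CPM with log2 fold changes from −0.53 to 0.18 over the 4 comparisons of groups, and none passed by edgeR with all libraries. It was called lower in KO RA than in WT RA by limma-voom and by edgeR without both WT NO 3 and KO RA 3.

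Ifi27, a mitochondrial interferon-induced protein, stood at 0, 0.111 and 0 CPM in WT NO, all at the floor, and at 1.20, 0.504 and 0.168 CPM in KO NO. It stood at 0.673, 0.582 and 0.287 CPM in WT RA and 1.04, 0.477 and 3.97 CPM in KO RA. Its mean was at least 6.08-fold higher in KO NO than the floor in WT NO (adjusted p = 0.200), and at least 5.00-fold higher in WT RA (adjusted p = 0.254), and neither passed by edgeR. DESeq2 on all 12 libraries called it in KO NO against WT NO (adjusted p = 0.039). The 2′-5′ oligoadenylate synthetase-like gene Oasl2 reached 2.66 CPM in WT NO 3 and 0.726 CPM elsewhere.

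Of the MHC class I genes, B2m (chromosome 2, 121977957 to 121983594, plus strand) stood at 54.1, 55.4 and 78.0 CPM in WT NO, 50.2, 66.9 and 66.7 CPM in WT RA, 35.8, 40.5 and 43.2 CPM in KO NO and 79.1, 62.4 and 781 CPM in KO RA. KO NO was below the other groups in every library, and KO RA 3 was far above the 11 others. The log2 fold change of KO RA against KO NO was 2.95 (SE 0.80, adjusted p = 0.0556) with all libraries, and 0.82 (SE 0.19, adjusted p = 0.0178) without KO RA 3, so 1 library set its size. KO NO against WT NO was −0.65 (SE 0.74, adjusted p = 0.861), and −0.64 (SE 0.18, adjusted p = 0.0484) without KO RA 3. Of the 6 fibroblast and mesenchymal markers, the same library was above both other KO RA libraries in Dcn, at 345 CPM against 12.7 and 23 CPM, between them in Col1a1, and below both in Col1a2, Col3a1, Pdgfra and Pdgfrb. The part of other cell types in its B2m level was not tested.

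The heavy chain H2-K1 stood at 23.1, 26.2 and 32.3 CPM in WT NO, 27.1, 13.4 and 18.4 CPM in WT RA, 18.6, 23.9 and 18.6 CPM in KO NO and 11.2, 5.96 and 28.2 CPM in KO RA. Its groups overlapped in every comparison. By edgeR H2-K1 passed only in fits without KO RA 3, at −1.21 for KO RA against WT RA (adjusted p = 0.0446) and −1.26 for KO RA against KO NO (adjusted p = 0.0266), while with all libraries these values were −0.39 (adjusted p = 0.704) and −0.45 (adjusted p = 0.575). The second heavy chain H2-D1 stood at 0.810, 1.37 and 3.02 CPM in WT NO, 1.68, 1.26 and 0.956 CPM in WT RA, 1.61, 1.60 and 1.48 CPM in KO NO and 0.587, 0.852 and 1.98 CPM in KO RA. It overlapped in every comparison and its log2 fold changes ran from −0.49 to −0.15 over the 4 comparisons of groups. In WT NO the mean of H2-K1 was 27.2 CPM and that of H2-D1 1.73 CPM.

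The peptide transporter subunit Tap1 stood at 1.30, 0.739 and 0.427 CPM in WT NO and at 0.176, 0.0889 and 0.112 CPM in KO NO. It stood at 0.577, 0.243 and 0.143 CPM in WT RA and 0.0451, 0.239 and 0.0991 CPM in KO RA. KO NO lay below WT NO in every library, near the floor, and the log2 fold change was −2.67 (SE 0.80, adjusted p = 0.163). The median of chromosome 17 was −0.47 in the same comparison. The peptide editor Tapbp stood between 1.78 and 8.64 CPM in 11 libraries and at 34.1 CPM in WT NO 3, and it passed no test. The other transporter subunit, Tap2, did not exceed 0.670 CPM, and the trimming peptidase Erap1 ranged from 2.87 to 9.46 CPM without a call.

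**Figure D3:**
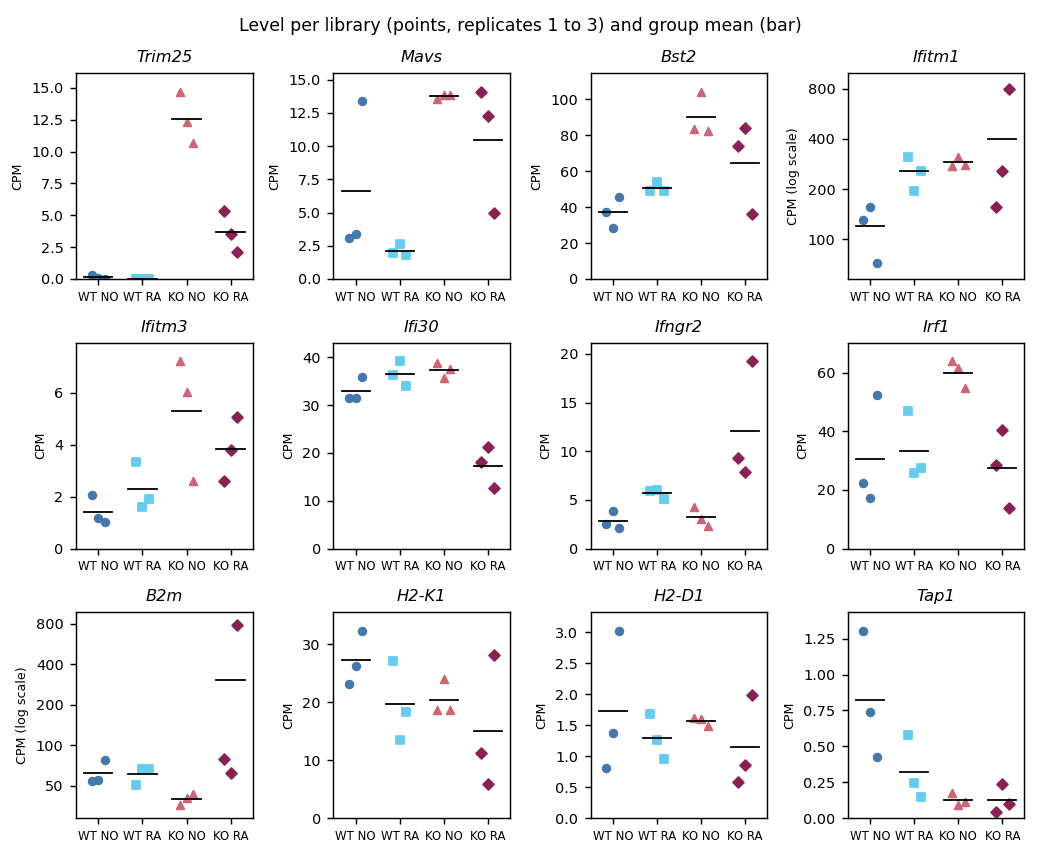
Levels of 12 members (CPM; linear axes from 0, logarithmic for Ifitm1 and B2m) in the 3 libraries of each group, with the group mean as a bar. Trim25 is at or near 0 in the WT groups and at 2.08 to 14.7 CPM in the KO groups, Ifi30 is lowest in KO RA, and the B2m mean of KO RA rests on 1 library at 781 CPM.

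Promoter windows of 300 bases, most of them upstream of the transcript start, were taken from RefSeq for 37 of the 44 members (mouse build GRCm38.p6). The core of the interferon-stimulated response element, taken as GAAA, any 2 bases and GAAA on either strand, was found in 12 of these members (32.4%) and in 3.99% of all 27025 genes with a window, and the gamma-activated site, taken as TTC, any 3 bases and GAA, in 9 members (24.3%) and 9.55% of all genes. The first motif was in the windows of B2m, Bst2, Erap1, Ifih1, Ifit1, Ifit3, Ifitm2, Ifitm3, Isg15, Oas1a, Rsad2 and Stat2. Genes with the motif thus stood at both ends of the expression range, from Ifitm2 and B2m to Ifit1, Ifit3, Oas1a and Rsad2 at the edge of detection. The windows of Trim25, Mavs, Ifi30 and Ifngr2 held neither motif. The B2m window is printed as the chain gene that holds a match. The windows of Bst2, Ifit1 and Trim25 were added after their values were seen, to set a gene with higher values in KO NO, a barely detected gene and a gene without a match beside it. Capitals mark matches, and matches that overlap run together, as the gamma-activated site and 2 response element cores do in Bst2; Trim25 has none.
B2m, chr2:122147437-122147736, plus strand: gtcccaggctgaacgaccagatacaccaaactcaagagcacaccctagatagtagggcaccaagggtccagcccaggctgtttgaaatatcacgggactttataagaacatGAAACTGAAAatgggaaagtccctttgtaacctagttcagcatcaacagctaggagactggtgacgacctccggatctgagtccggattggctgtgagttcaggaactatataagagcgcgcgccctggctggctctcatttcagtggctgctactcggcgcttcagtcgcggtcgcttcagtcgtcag
Bst2, chr8:71537423-71537722, minus strand: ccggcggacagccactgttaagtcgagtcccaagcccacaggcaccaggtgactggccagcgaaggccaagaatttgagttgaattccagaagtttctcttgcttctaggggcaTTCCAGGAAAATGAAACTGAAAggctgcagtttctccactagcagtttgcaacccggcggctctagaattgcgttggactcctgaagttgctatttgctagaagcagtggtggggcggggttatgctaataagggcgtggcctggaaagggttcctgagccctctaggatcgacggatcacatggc
Ifit1, chr19:34640639-34640938, plus strand: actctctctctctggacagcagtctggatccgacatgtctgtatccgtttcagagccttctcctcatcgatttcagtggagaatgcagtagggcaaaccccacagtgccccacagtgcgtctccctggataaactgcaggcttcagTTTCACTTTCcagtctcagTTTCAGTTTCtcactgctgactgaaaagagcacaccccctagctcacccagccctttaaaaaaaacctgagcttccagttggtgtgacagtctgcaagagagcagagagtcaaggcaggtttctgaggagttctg
Trim25, chr11:88999153-88999452, plus strand: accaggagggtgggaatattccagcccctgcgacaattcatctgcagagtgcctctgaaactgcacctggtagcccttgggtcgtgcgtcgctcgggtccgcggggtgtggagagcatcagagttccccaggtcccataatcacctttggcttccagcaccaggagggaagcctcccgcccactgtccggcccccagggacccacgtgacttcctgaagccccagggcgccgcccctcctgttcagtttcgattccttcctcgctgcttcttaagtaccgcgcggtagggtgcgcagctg

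KO NO against WT NO asked how these genes differed between the Faf2 KO line and WT cells without RA. Of the 32 members tested, 1 was called higher, Trim25, and 0 lower, beside 0.788% and 0.351% of all 16502 genes tested. The groups did not overlap in 7 members that were higher in KO NO (Mavs, Irf1, Ifi27, Ifitm1, Ifitm3, Bst2 and Trim25) and in 3 that were lower (Ifit2, B2m and Tap1), beside 15.5% and 15.2% of all genes tested. By role, 9 of the 12 effectors tested and 1 of the 7 MHC class I genes, Tap2, had a positive log2 fold change, beside 48.3% of all genes tested. Of the 7 MHC class I genes, 5 (H2-K1, H2-D1, Tap1, Tap2 and Tapbp) lie on chromosome 17, where the median of all genes tested was −0.47. An unadjusted p under 0.05 was reached by 5 members with higher values (Ifi27, Ifitm1, Ifitm3, Bst2 and Trim25) and 1 with a lower value, Tap1, beside 5.81% and 6.37% of all genes. DESeq2 on all 12 libraries called Ifi27, Ifitm3, Bst2 and Trim25 higher and Tap1 lower, and 5.01% of all genes in either direction. The median of the members was 0.11 and that of all genes −0.02. Without KO RA 3, Bst2, Ifitm1, Ifitm3 and Trim25 were called higher and B2m lower, while 8.78% of all genes were called in either direction.

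KO RA against WT RA asked the same after RA. Here 1 member was called higher, Trim25, and 1 lower, Ifi30, beside 0.885% and 0.358% of all genes. The groups did not overlap in 4 members that were higher (Mavs, Ifngr2, Irf9 and Trim25) and in 3 that were lower (Isg20, Ifi30 and Ifitm2), beside 9.97% and 10.9% of all genes. The adaptor and kinase genes and the receptor genes all had positive values, with medians of 1.03 over 3 genes and 0.43 over 5 genes, while 1 of the 7 MHC class I genes did (median −0.39, with −0.46 over all genes tested on chromosome 17), beside 55.6% of all genes tested. The median of the 32 members was 0.36, against 0.09 for all genes. Both KO against WT comparisons thus held Trim25. Their libraries are separate, but they come from the same WT and KO lines and share 1 estimate of the spread. Without KO RA 3, Mavs, Jak1 and Trim25 were called higher and Ifi30 and H2-K1 lower, with 9.85% of all genes called in either direction.

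**Figure D4:**
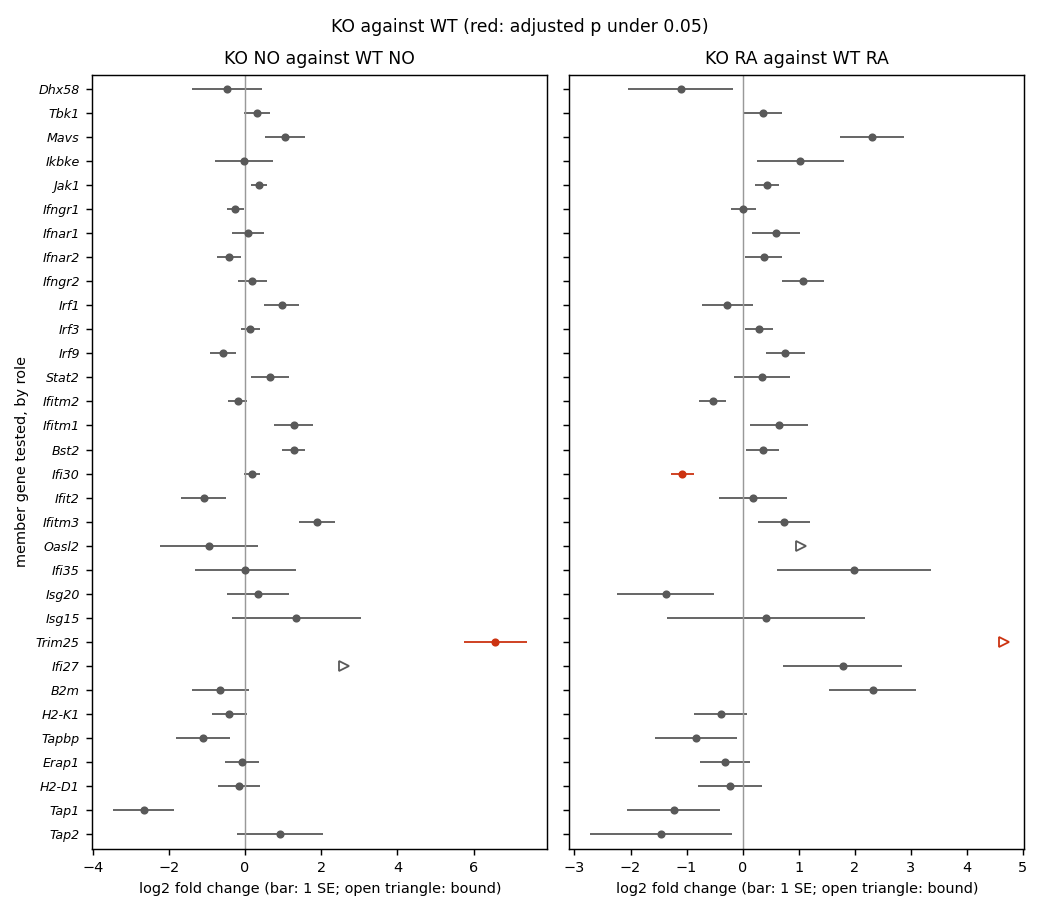
Log2 fold change with 1 SE of the 32 members tested, by role, for KO NO against WT NO (left) and KO RA against WT RA (right); red marks an edgeR adjusted p under 0.05, and open triangles are bounds where a WT group was at the floor. Trim25 is red in both panels and Ifi30, at −1.07, on the right only.

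WT RA against WT NO asked which members differed between cells treated with RA and untreated cells. With edgeR 0 members were called higher and 0 lower, beside 0.321% and 0.0848% of all genes, and DESeq2 on all 12 libraries also called 0 members and 4.53% of all genes, while limma-voom with sample weights called 3, all higher (Ifngr2, Ifitm1 and Bst2), and 21.7% of all genes in either direction. At an unadjusted p under 0.05 edgeR gave 2 higher, Ifngr2 and Ifi27, and 3 lower, Mavs, Oasl2 and Trim25, beside 6.76% and 5.79% of all genes. Trim25 was near or at the floor in both WT groups, so the size of a decrease could not be measured. Mavs and Oasl2 were far higher in WT NO 3, at 13.4 and 2.66 CPM, than in WT NO 1 (3.10 and 0.141 CPM) and WT NO 2 (3.36 and 0 CPM). The groups did not overlap in 4 members that were higher (Ifngr2, Ifi27, Ifitm1 and Bst2) and 3 that were lower (Mavs, Jak1 and Irf3), beside 15.1% and 14% of all genes. The median was −0.07, or −0.05 with members at the floor set to their bound, against −0.01 for all genes. Ifngr2 and Ifitm1 were called higher without KO RA 3, where 10.8% of all genes were called in either direction.

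KO RA against KO NO asked the same in KO cells. Ifngr2 was the 1 member called higher and Ifi30 the 1 called lower, beside 3.89% and 1.59% of all genes. The groups did not overlap in 4 members that were higher (Ifnar2, Ifngr2, Irf9 and B2m) and 4 that were lower (Irf1, Ifi30, Trim25 and Tapbp), beside 13.2% and 17% of all genes. The median of the members was −0.18 and that of all genes 0.11. When KO NO 1, KO NO 2 or KO NO 3 was left out, none of the members was called. In these fits the share of all genes called in either direction was also low, at 1.12, 1.21 and 1.35%.

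The RA response differed between the genotypes at an adjusted p under 0.05 in 0 members in either direction, beside 0% of all genes in each direction. At an unadjusted p under 0.05 it was higher in KO for 2 members, Irf9 (1.35, SE 0.49) and B2m (2.98, SE 1.07), and lower for 1, Ifi30, beside 5.53% and 3.09% of all genes. DESeq2 on all 12 libraries called 1 member, Ifi30 (adjusted p = 0.000143), and limma-voom 4: Irf9 higher, and Irf1, Ifi30 and Ifitm1 lower, with 1.44% and 6.07% of all genes called by these tools in either direction.

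**Figure D5:**
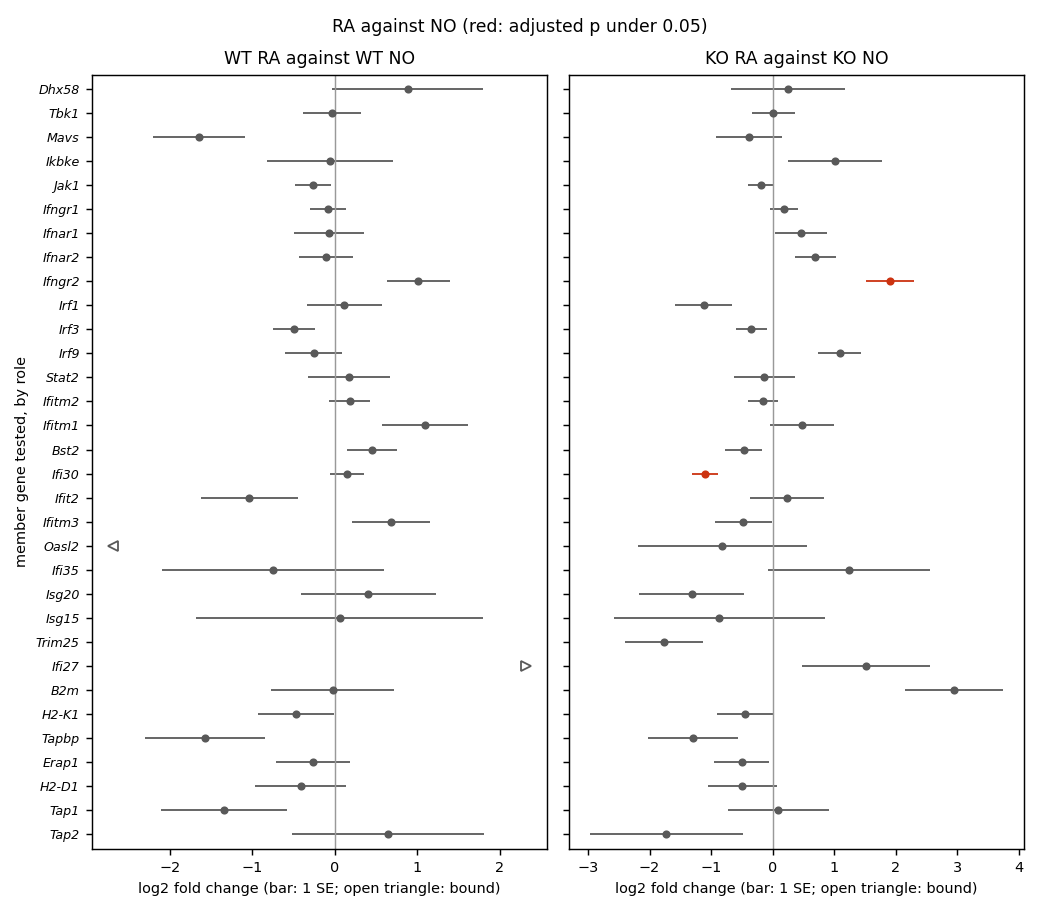
Log2 fold change with 1 SE of the members tested, by role, for WT RA against WT NO (left, Trim25 not drawn since both WT groups were near or at the floor) and KO RA against KO NO (right); red marks an edgeR adjusted p under 0.05 and open triangles are bounds. On the right Ifngr2 stands at 1.91 and Ifi30 at −1.103, and B2m at 2.95 has an SE of 0.80.

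Beside the 44 members, 80 further genes of the same pathways were followed, of which 48 were tested and 16 were at or under the floor in all 12 libraries. The interferon genes Ifnb1, Ifna4 and Ifng and the antiviral GTPase gene Mx1 were listed at 0 CPM in every library. By edgeR 0 of the 48 were called in KO NO against WT NO and 0 in WT RA against WT NO. In the first an unadjusted p under 0.05 was reached by 4 with higher and 1 with lower values, beside 5.81% and 6.37% of all genes. In the second it was reached by 2 with higher and 12 with lower values, beside 6.76% and 5.79% of all genes. Among these 12, WT NO 3 was more than 2-fold above both other WT NO libraries in Irgm1, Igtp, Gbp2, Tapbpl, Psmb9 and Psmb10. Irgm1, for example, stood at 2.89, 2.26 and 19.4 CPM in WT NO and at 2.31, 2.38 and 2.20 CPM in WT RA. In Samhd1, Herc6, Pdia3, Zc3hav1, Shisa5 and Tbkbp1 WT NO 3 did not stand apart in this way. The counts at that p were 6 higher and 0 lower in KO RA against WT RA, beside 10.9% and 6.67% of all genes, and 4 higher and 10 lower in KO RA against KO NO, beside 15.8% and 9.42%. The median of the 48 in WT RA against WT NO was −0.27, against −0.01 for all genes tested. In KO RA against WT RA 1 was called higher and 0 lower, beside 0.885% and 0.358% of all genes. It was the immunoproteasome subunit Psmb10, which stood at 0.192, 0.873 and 0.812 CPM in WT RA and at 7.54, 7.19 and 67.3 CPM in KO RA (5.43, SE 1.14, adjusted p = 0.0478). It stood at 1.37, 3.59 and 13.1 CPM in WT NO and 17.4, 17.3 and 14.7 CPM in KO NO, which did not overlap either (1.45, SE 0.93, adjusted p = 0.621). In KO RA against KO NO the receptor kinase Jak2 rose by 0.97 (adjusted p = 0.0492), from 7.85, 6.96 and 7.82 CPM to 13.9, 10.6 and 19.9 CPM, without overlap. The feedback inhibitor Socs1 fell by 1.35 (adjusted p = 0.0276), from 9.08, 5.66 and 7.57 CPM to 3.12, 3.31 and 2.28 CPM, and the antiviral zinc finger gene Zc3hav1 fell by 1.24 (adjusted p = 0.0475). Over all genes tested 3.89% were called higher and 1.59% lower in KO RA against KO NO. For the difference of the RA response edgeR called 0 of the 48. An unadjusted p under 0.05 was reached by 4 with higher and 1 with lower values in KO, beside 5.53% and 3.09% of all genes.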

How the data were processed

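Per the study's methods, the authors collected cells of 3 passages per group, made mRNA libraries and ran the nf-core/rnaseq pipeline at its defaults (STAR, Salmon) on GRCm39 with an Ensembl annotation. The values deposited by the authors are estimated counts scaled from TPM, which corrects them for gene length, without normalization between libraries. A deposited count is thus not a number of fragments: among 3851 genes detected in a single library, longer genes had smaller values (Spearman −0.685 with exonic length). Groups came from the sample titles.

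Counts were rounded and tested with edgeR 4.0.16 in R 4.3.3: filterByExpr with the 4 groups (16502 genes), TMM factors, 1 coefficient per group over all 12 libraries, robust quasi-likelihood F test, and Benjamini-Hochberg adjustment over all genes tested. A member was called at an adjusted p under 0.05. Standard errors came from the F statistic. A fold against a group with at most 3 counts in every library is a bound computed from 3 counts per library. Positions are from GENCODE vM39. Alternatives used DESeq2 1.42.0 and limma 3.58.1. On simulated counts for KO NO against WT NO over 16502 genes, edgeR recovered 4% of genes changed by 1 on the log2 scale, 64% of those changed by 2 and 92% of those changed by 4. The changed genes, 50 per size, were drawn only from genes above a minimum mean count. These rates thus do not cover the members with lower counts.

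The members and lists were chosen with earlier results of these data known. Values in every library are given for members called in a comparison, for members with an unadjusted p under 0.05 and groups without overlap, and for Mavs, Irf3, B2m, H2-K1 and H2-D1. The p-values measure the spread between passages of 1 WT and 1 KO line. Results for some genes of the further lists are not reported here.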

Additional observations from a re-analysis of the deposited data

How the results depend on the processing

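Members called, out of those tested, are given in the same order throughout: genotype without RA, genotype with RA, RA in WT, RA in KO, and the genotype difference of the last 2. All libraries in edgeR gave 1, 2, 0, 2 and 0. DESeq2 on all 12 libraries gave 5, 3, 0, 4 and 1 (beside 5.01, 7.19, 4.53, 14.7 and 1.44% of all genes). DESeq2 size factors in edgeR gave 2, 2, 0, 2 and 0 (beside 1.22, 1.51, 0.394, 6.76 and 0%). Limma-voom with sample quality weights gave 9, 9, 3, 7 and 4 (beside 21.7, 18.1, 21.7, 27.5 and 6.07%). No filter beyond 1 count gave 1, 1, 0, 2 and 0 (beside 0.554, 0.495, 0.149, 2.02 and 0%). At least 10 counts in every library, which drops Trim25, gave 0, 0, 0, 3 and 0 (beside 0.371, 0.691, 0.311, 5.71 and 0%). Fitting the libraries of the groups compared alone gave 3, 0, 0 and 0 for the comparisons of groups by edgeR (beside 4.71, 0.108, 3.71 and 1.28% of all genes). By DESeq2 these fits, added after seeing the data, gave 6, 3, 3 and 3 (beside 10.7, 3.83, 10.7 and 8.42%). Leaving out 1 library at a time gave 0 to 5, 0 to 5, 0 to 2, 0 to 4 and 0 to 1. The highest values were those without KO RA 3. There the share of all genes called also went up, to between 8.78% and 16.0% in the comparisons of groups. Leaving out both WT NO 3 and KO RA 3, added after seeing the data, gave 7, 9, 4, 8 and 4 (beside 15.3, 18.8, 18.3, 25.3 and 6.18% of all genes). No called difference of a member reversed in an alternative, and the cause of these changes was not tested.

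No pairing by replicate number was seen: same-numbered deviations from the group means correlated between −0.215 and 0.0464. Since a group mean of 3 depends strongly on KO RA 3 or WT NO 3, these values cannot show whether the numbers mark shared passages. With the replicate block 1, 1, 0, 1 and 0 members were called, beside 0.339, 0.358, 0.0606, 2.83 and 0% of all genes.

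The common dispersion of 0.215 gave a median SE of 0.427 to 0.431 on the log2 scale for comparisons of groups and 0.605 for the difference of the RA response, and 12 members were too low to be tested. In simulated counts for KO NO against WT NO over 16502 genes, 4% of genes changed by 1 on the log2 scale were called, 64% of those changed by 2 and 92% of those changed by 4. Since the changed genes were drawn only from genes above a minimum mean count, these rates do not cover the members with lower counts.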
